A study of Mus musculus and Homo sapiens with 20 samples.

Results

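H2AK119ub, monoubiquitylated histone H2A, was compared in K562 cells between MBD6 knockdown (KD) and control, in 4 of the 20 samples of the series, chosen by their cell line and antibody labels. K562 (K-562) is a human chronic myeloid leukaemia line that carries the BCR-ABL1 fusion, and the labels list it as lymphoblast cells from bone marrow. The siControl group (2 samples, genotype control) received a control siRNA, and the siMBD6 group (2 samples, genotype MBD6 knockdown) an siRNA against MBD6, both by nucleofection. All 4 samples were grown with puromycin, went through the same CUT&Tag kit with Drosophila chromatin as spike-in, and were profiled with the same antibody. The labels do not give the TET2 genotype of these cells, nor which siRNA against MBD6 was used. The study's library summary lists K562 H2AK119ub libraries with siMBD6 on a TET2 KO background and control libraries on both WT and TET2 KO backgrounds, so the TET2 genotype of each group here, and whether both groups share it, was not settled. The study's methods call its CUT&Tag replicates biological, but the labels do not say whether the 2 samples of a group were separate cultures.

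H2AK119ub is written by Polycomb repressive complex 1 (PRC1) and marks developmental regulators and other silent genes, together with broad low-level domains between them. The mark is removed by the Polycomb repressive deubiquitinase (PR-DUB), in which the hydrolase BAP1 acts with an ASXL protein. MBD6 and MBD5 are methyl-CpG-binding-domain proteins that bind PR-DUB. The comparison asks where the mark was called once MBD6 had been depleted, and in particular whether domains already present in siControl grew or domains appeared elsewhere.

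Of the sequences that the lists newly marked, 4 promoter segments and 1 intronic segment are shown, each 250 bases long (hg38, 5′ to 3′ on the strand given), because they are at the head of the gained promoters and of the isolated gains described below or, for MBD6, lie at the targeted gene. Capitals mark CpG dinucleotides. Every base shown lay under a peak in both siMBD6 lists and in neither siControl list. The promoter segments are the 250 bases nearest upstream of the annotated gene start that hold no annotated UTR. They held 15 CpG sites at MBD6, 1 at ACOX2, 24 at PACSIN2 and 6 at HOXA10, and the intronic segment in RNF144A held 5, so the newly marked sequence ran from CpG-poor to CpG-dense.
MBD6 promoter, chr12:57520168-57520417, plus strand: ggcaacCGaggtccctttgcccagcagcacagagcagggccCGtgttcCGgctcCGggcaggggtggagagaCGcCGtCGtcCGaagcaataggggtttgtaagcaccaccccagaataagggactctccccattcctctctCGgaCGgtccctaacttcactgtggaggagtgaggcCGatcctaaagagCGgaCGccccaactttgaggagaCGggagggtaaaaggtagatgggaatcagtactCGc
ACOX2 promoter, chr3:58537284-58537533, minus strand: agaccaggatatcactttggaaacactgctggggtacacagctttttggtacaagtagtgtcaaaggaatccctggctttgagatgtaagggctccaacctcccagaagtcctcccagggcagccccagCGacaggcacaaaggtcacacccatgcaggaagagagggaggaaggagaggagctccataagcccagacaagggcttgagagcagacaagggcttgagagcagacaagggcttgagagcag
PACSIN2 promoter, chr22:43015150-43015399, minus strand: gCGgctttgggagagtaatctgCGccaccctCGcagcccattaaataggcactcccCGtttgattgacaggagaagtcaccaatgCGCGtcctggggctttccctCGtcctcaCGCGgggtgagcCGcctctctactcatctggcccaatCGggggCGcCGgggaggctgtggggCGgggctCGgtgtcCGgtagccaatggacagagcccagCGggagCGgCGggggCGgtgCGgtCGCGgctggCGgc
HOXA10 promoter, chr7:27180262-27180511, minus strand: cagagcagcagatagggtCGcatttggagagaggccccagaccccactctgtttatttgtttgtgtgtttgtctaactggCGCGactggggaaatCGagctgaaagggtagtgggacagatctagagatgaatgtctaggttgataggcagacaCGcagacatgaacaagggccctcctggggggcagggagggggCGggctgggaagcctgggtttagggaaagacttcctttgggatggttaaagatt
RNF144A intron, chr2:6958817-6959066, plus strand: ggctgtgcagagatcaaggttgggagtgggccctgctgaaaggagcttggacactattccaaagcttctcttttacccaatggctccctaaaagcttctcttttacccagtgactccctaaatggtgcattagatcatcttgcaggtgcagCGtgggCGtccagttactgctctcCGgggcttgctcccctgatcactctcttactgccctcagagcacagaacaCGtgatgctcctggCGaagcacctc

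The files were lists of peak positions on hg38 with no score or read count, so the depth behind each list is unknown and a longer list cannot be told apart from deeper sequencing. On the 22 autosomes the lists held 90225 and 90267 peaks in siControl and 105140 and 108659 in siMBD6. They covered 130.9 and 130.8 Mb in siControl against 175.6 and 188.0 Mb in siMBD6, or 4.75% and 4.75% against 6.37% and 6.82% of the known bases. The narrowest peak measured 501 bp in these lists, and 30.2% to 35.4% of each list had exactly that width. MTAP, CDKN2A and CDKN2B, which K562 has lost by deletion, were at 0% in all 4 lists, but so were 33.5% of protein-coding genes, so this does not identify the line. The widest peak of every list, 167 to 187 kb, lay over LAMC3, AIF1L and NUP214 beside ABL1, and 7 to 10 of the 10 widest peaks of each list were on chromosome 9 or 22. This is the region amplified with the fusion in K562, and the part of copy number in the peaks there was not tested. The 2 siControl lists had nearly equal totals but shared far fewer of their positions (Jaccard index of bases 0.527, against 0.640 for the 2 siMBD6 lists). The small SD of siControl totals is therefore no measure of how far 2 control lists differ in place.

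Most of the additional H2AK119ub lay in loci that all 4 lists already marked. Peaks of the 4 lists were joined into loci over gaps of up to 1 kb, which gave 93919 loci. Of these, 33386 held a peak in every list and are called shared loci. Their covered length was 119.7 and 119.6 Mb in siControl and 151.2 and 159.4 Mb in siMBD6, so both siMBD6 lists were above both siControl lists. The mean rose from 119.6 ± 0.0401 Mb (SD, n = 2) to 155.3 ± 5.84 Mb (SD, n = 2), or by 29.8%. A two-sided exact permutation test over 2 against 2 samples cannot go below p = 0.333, which is the value for this and every other single measure whose groups did not overlap. Shared loci held 35.7 of the 51.0 Mb by which the siMBD6 mean exceeded the siControl mean, a share of 70.0% that varied by 0.527 points (SD over the 4 pairs of an siMBD6 with an siControl list). Loci in both siMBD6 lists and 1 siControl list added 14.1% of the difference, loci in both siMBD6 lists alone 10.7%, and loci in a single siMBD6 list 11.4%. Loci of a single siControl list contributed -4.92%, and those of both siControl lists alone -0.836%.

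**Figure D1:**
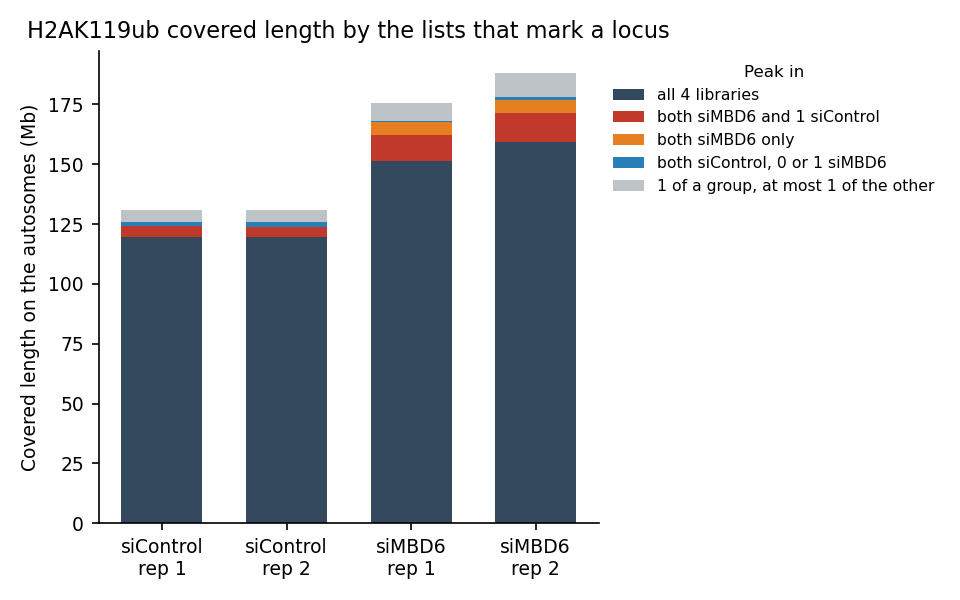
Stacked bars give the autosomal length covered by H2AK119ub peaks (Mb, from 0) in each list, split by which lists hold a peak at the locus. The part marked in all 4 lists grew from 119.7 and 119.6 Mb in siControl to 151.2 and 159.4 Mb in siMBD6, while loci marked in both siMBD6 lists alone reached 5.35 and 5.60 Mb.

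Inside the shared loci, coverage grew while the total number of peaks fell slightly. Covered length per shared locus had a median of 1.60 and 1.61 kb in siControl and of 2.33 and 2.56 kb in siMBD6. The number of peaks in these loci fell in parallel, from 71581 and 71551 to 69210 and 67985. That fall lay in loci of 5 kb or more, whereas the more numerous smaller loci held more peaks per locus in siMBD6. Shared loci with a single peak numbered 17038 and 16954 in siControl and 15836 and 15918 in siMBD6. The distance from the first to the last peak of a locus averaged 5.04 and 5.04 kb in siControl and 5.65 and 5.80 kb in siMBD6, a mean change of 13.7%. Peaks covered 71.2% and 71.1% of that distance in siControl and 80.1% and 82.4% in siMBD6. In every one of these measures the 2 groups did not overlap. The outward extension was thus smaller, in proportion, than the change in covered length.

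The same division was seen base by base. A total of 22.3 Mb was covered in both siMBD6 lists and in neither siControl list, and 1.78 Mb showed the reverse. Of the gained bases, 45.3% (10.1 Mb) lay between siControl peaks of a locus that both siControl lists marked, and 25.8% (5.77 Mb) extended outward from such a locus. A further 13.3% was in loci that 1 siControl list marked. Bases in loci without any siControl peak made up 9.81% where such a peak was under 5 kb away and 5.73% (1.28 Mb) where none was. The lost bases had a similar make-up, with 47.3% between siMBD6 peaks of a locus, 30.9% at its outside and 3.59% in isolated loci. Single gained segments were short, with a median of 218 bp and a longest of 2829 bp.

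The pairs of lists set these amounts against the difference between replicates. An siMBD6 list covered 67.6 to 76.5 Mb that a given siControl list did not (4 pairs), and an siControl list covered 19.2 to 22.9 Mb that a given siMBD6 list did not. Within siControl, each list covered 40.5 or 40.6 Mb absent from the other, and within siMBD6 33.7 or 46.1 Mb. The siMBD6 excess was therefore larger than either within-group difference, but such a one-way amount also depends on how long each list is. By the Jaccard index of bases, an siControl and an siMBD6 list shared 0.538 to 0.544. That was above the 0.527 within siControl and below the 0.640 within siMBD6. An siControl list thus differed in place from an siMBD6 list no more than from its own replicate. The share of the siMBD6 excess in peaks that touched a peak of the other list was 57.9% to 58.6%. It lay between the shares seen within siControl (55.0%) and within siMBD6 (59.9% and 60.8%).

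Growth was proportionally largest in small and middle-sized shared loci. Loci of 1 to 2 kb (mean over the 4 lists, 9554 loci) covered 10.8 and 10.9 Mb in siControl and 15.8 and 17.3 Mb in siMBD6, a change of 52.7%. Loci of 2 to 5 kb changed by 46.1%, those of 5 to 10 kb by 31.1%, those of 10 to 20 kb by 22.1%, those of 20 to 50 kb by 15.5% and the 93 loci of 50 kb or more by 9.02%. Below 1 kb the change was 26.1%, in a class where the minimum peak width of 501 bp limits what can change. The peak number per locus moved in opposite directions by size. It rose from 1.30 and 1.31 to 1.47 and 1.51 in loci of 1 to 2 kb, and fell from 12.6 and 12.4 to 8.61 and 7.81 in loci of 50 kb or more.

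**Figure D2:**
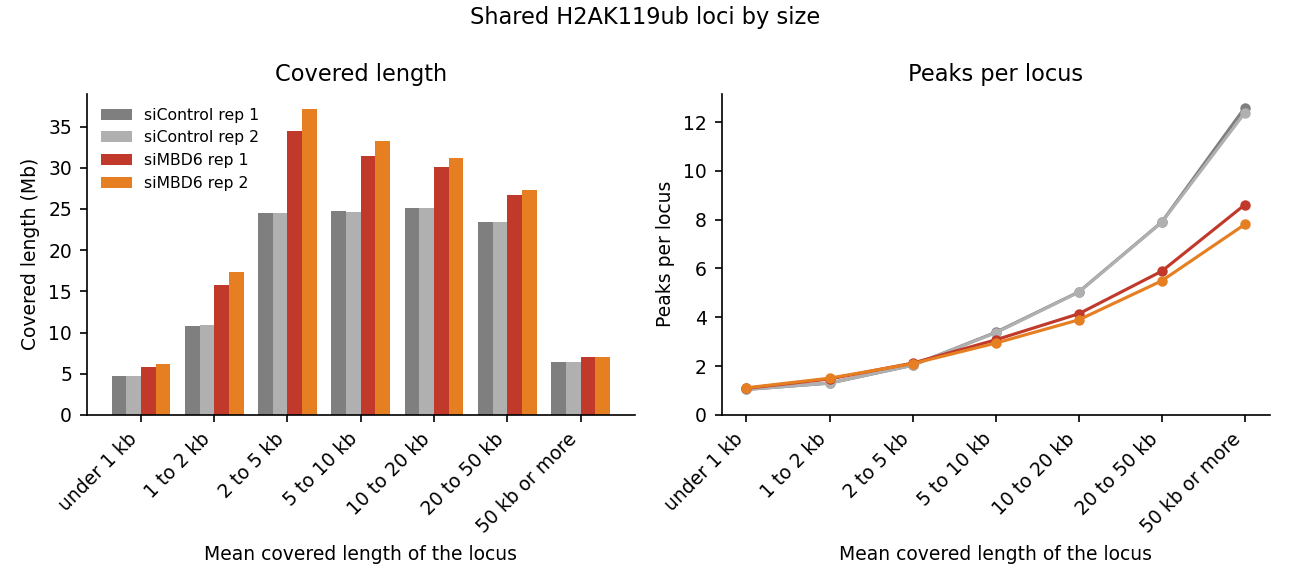
Left, bars give the summed covered length (Mb, from 0) of shared loci in each list by size class, and right, points joined by lines give the mean number of peaks per locus. Both siMBD6 lists exceed both siControl lists in length in each class, and from 5 kb upward they hold fewer peaks per locus.

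Locus by locus, both siMBD6 lists exceeded both siControl lists in 18761 of 33386 shared loci (56.2%) and were below both in 725 (2.17%). In a limma fit of log2 covered length, the median difference over all shared loci was 0.43 on the log2 scale. At an adjusted p under 0.05, limma called 0 loci wider (0%) and 0 narrower (0%), with a smallest adjusted p of 0.129. At an unadjusted p under 0.05, 8135 (24.4%) were wider and 60 (0.18%) narrower. When loci were joined over 5 kb, limma called 2846 wider and 1 narrower at an adjusted p under 0.05.

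The 8 shared loci with the largest gap between the groups were already broad in siControl. A locus on chromosome 1 (chr1:201024355-201150141) over CACNA1S, a skeletal muscle calcium channel subunit, ASCL5 and TMEM9 was covered for 83.6 and 84.1 kb in siControl and for 104.3 and 104.2 kb in siMBD6. Over NFASC and CNTN2, axonal cell adhesion genes (chr1:204941518-205078354), coverage was 111.6 and 106.0 kb against 128.0 and 128.7 kb, and the peaks decreased from 22 and 26 to 13 and 11. At ELFN2 (chr22:37328348-37421889) it was 65.6 and 65.2 kb against 81.7 and 81.9 kb. At these 3 loci the siMBD6 lists held 11 to 25 peaks and the siControl lists 22 to 33. Longer coverage thus came with fewer peaks. The groups do not overlap in length there by the rule that chose the loci.

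COL27A1, a fibrillar collagen chain gene (chr9:114234965-114291484), had 35.7 and 33.2 kb covered in siControl and 49.2 and 48.8 kb in siMBD6. FSTL4, a follistatin-like gene (chr5:133275469-133329329), showed the largest ratio of the 8 loci, 1.61, from 25.7 and 27.4 kb to 40.3 and 45.3 kb. The other 3 lay in CAMTA1, a transcription activator gene, over the kinase gene NUAK2 with KLHDC8A, and in EPHB2, an ephrin receptor gene, with ratios of 1.33, 1.27 and 1.24. In the opposite direction the gaps were small. The locus in NPAS1, a neuronal transcription factor gene (chr19:47037614-47045176), went from 5.84 and 5.57 kb to 4.28 and 4.34 kb. The locus over MST1 and RNF123 (chr3:49687201-49691521) went from 2.21 and 2.36 kb to 0.831 and 1.13 kb, and that in NOC4L from 4.30 and 4.75 kb to 3.22 and 1.96 kb.

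Outside the shared domains the increase reached far beyond their edges. Cores were the bases covered in all 4 lists, joined where under 10 kb apart (13905 cores), and coverage was read outward from their outer edges. In the first 5 kb, 8.50% and 8.53% of bases were covered in siControl and 16.3% and 18.7% in siMBD6, a mean change of 106%. Since a core ends where the first of the 4 lists ends, a list with wider peaks must extend further here. The ratio of the group means was 1.84 in the first 1 kb and stayed between 1.93 and 2.57 in every 1-kb bin from there to 50 kb. Both siMBD6 lists were above both siControl lists in all 50 bins. Coverage itself fell with distance, from 20.02% and 20.2% in siControl and 34.9% and 38.9% in siMBD6 in the first 1 kb to 2.60% and 2.45% against 5.30% and 6.16% at 10 to 11 kb. The relative difference was therefore not limited to the flanks of shared cores. With cores set by 3 lists, the flank coverage change in the first 5 kb was 161% without siControl replicate 1, 162% without siControl replicate 2, 129.7% without siMBD6 replicate 1 and 97.4% without siMBD6 replicate 2.

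**Figure D3:**
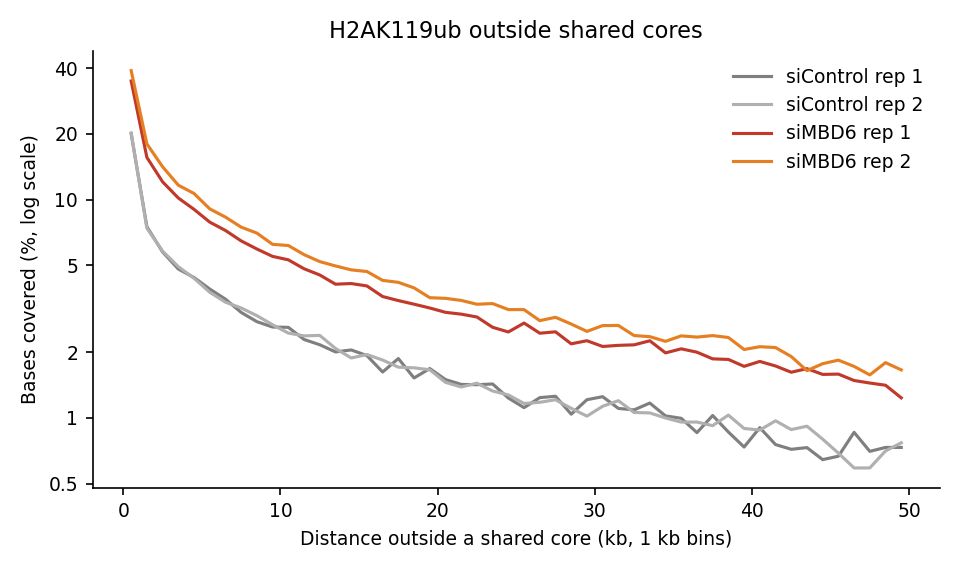
Lines give the percent of bases covered (log scale) in each list against the distance outside a shared core (kb, in bins of 1 kb). Both siMBD6 lines lie above both siControl lines in all 50 bins, by a ratio of means of 1.84 in the first bin and of 1.93 to 2.57 further out.

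New isolated loci were numerous but small. In all, 7674 loci had a peak in both siMBD6 lists and in neither siControl list, and 2977 of them (38.8%) were at least 5 kb from the nearest siControl peak. The reverse definition gave 735 loci, of which 207 (28.2%) were isolated. The new isolated loci covered 1.97 and 2.06 Mb in the 2 siMBD6 lists, and 89.8% were a single peak in both. In 38.5% both peaks had the minimum width of 501 bp, against 68.6% of the lost isolated loci. In 146 the shorter of the 2 covered lengths reached 1 kb, and in 6 it reached 2 kb. Promoters were touched by 268 of them, a further 42.5% were inside protein-coding genes, 32.2% lay outside every annotated gene and promoter, and their median distance to a protein-coding gene start was 40.9 kb. With all lists shortened to the same number of peaks in file order, new isolated loci numbered 1560 and lost ones 459.

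The 6 longest new isolated loci, all at 0 in both siControl lists, lay in introns, with an overlap of exons at 1 of them, or away from protein-coding genes. In RNF144A, a ubiquitin ligase gene (chr2:6956881-6960052), 2766 and 2618 bp were covered in siMBD6, and the nearest siControl peak was 14350 bp away. A locus on the same chromosome (chr2:88807020-88812470) with 2454 and 3652 bp had its nearest gene start, RPIA, at 115347 bp. SHANK2, a postsynaptic scaffold gene (chr11:71235658-71238842), had 2948 and 2334 bp. NPIPB8 (chr16:28640096-28642508), with 2413 and 2315 bp, belongs to a family of near-identical copies, so the placement of its reads is uncertain. At TRIM14 (chr9:98094806-98097492), 2668 and 2258 bp were covered, of which the locus had 163 bp in exons. The sixth, with 2368 and 2213 bp, lay 422015 bp from RND3 and 525817 bp from the nearest siControl peak (chr2:150113929-150116996). The longest lost isolated loci were shorter, with 1101 and 1373 bp in siControl near NPTX2, 1281 and 1002 bp near SNX18, and 820 and 1032 bp in ERICH6B.

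At promoters, gains outnumbered losses. A promoter was the 2001 bases around the annotated start of each of 19111 autosomal protein-coding genes, and it was marked when a peak touched it. The lists marked 6641 and 6848 promoters in siControl and 8011 and 8233 in siMBD6, and 5005 were marked in all 4. In both siMBD6 lists and neither siControl list, 623 promoters were gained (3.26%), and 77 were lost (0.403%) in the reverse. Gained promoters were covered for a median of 25% in both siMBD6 lists, the length of 1 peak of minimum width. Of the gained promoters, 171 (27.4%) lay in a locus that also held an siControl peak, and 452 (72.6%) in a locus without one, including 285 with an isolated locus. Of the 77 lost promoters, 52 (67.5%) likewise lay in a locus without an siMBD6 peak. These shares count a promoter by any touch, and the rule allows no peak of the other group in the window. They are therefore not comparable with the shares of gained bases. When a promoter of either group counted as marked only from 50% covered, the promoters gained numbered 405 and the promoters lost 26. These could be covered below 50% in the other group, so the 405 are not a part of the 623. With lists of equal peak number, the promoters gained numbered 401 and the promoters lost 142.

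Gained promoters differed in sequence from those marked throughout, but not from promoters marked in other combinations of lists. The median ratio of observed to expected CpG was 0.664 at gained promoters, 0.662 at lost ones and 0.557 at those marked in all 4 lists. It was 0.669 at the 4221 promoters marked in some other combination of lists, and 0.618 over every promoter. A ratio of at least 0.6, as in CpG islands, was found in 61.3% of gained promoters, 62.3% of lost ones and 63.8% of those in other combinations. The share was 43.2% of those in all 4 lists and 52.8% of all. Genes with a gained promoter had a median span of 32.4 kb, against 17.4 kb for promoters in all 4 lists. The median was 29.2 kb for other combinations, 21.9 kb for lost promoters and 27.9 kb for every promoter. These are descriptions of the windows, with no test.

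Among the 12 gained promoters with the widest gap, those of ACOX2 and PLAU were at 0% in both siControl lists and 100% in both siMBD6 lists. ACOX2, a peroxisomal oxidase gene of bile acid synthesis, had its span (chr3:58505136-58537283) covered for 15.8% and 17.8% in siControl and 25.3% and 28.2% in siMBD6. PLAU, the urokinase gene (chr10:73909177-73917496), was already covered for 64.4% and 84.3% of its span in siControl and for 89.5% and 90.4% in siMBD6. Both promoters lay in a locus that also held siControl peaks.

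PACSIN2, a membrane-shaping protein gene (chr22:42835412-43015149), was marked at 74.6% and 72.7% of its promoter in siMBD6, with no siControl peak in the locus. The same held at MPI, the mannose phosphate isomerase gene (66.1% and 64.1%), and BRAT1, a DNA damage response gene (63.7% and 64.5%). The HOXA10 promoter, that of a posterior homeobox gene (chr7:27170605-27180261), reached 77.2% and 71.8%, and an overlapping gene model (ENSG00000257184) 67.2% and 71.8%. Both lay in a locus that also held siControl peaks. The HOXA10 span was covered for 42.2% and 39.3% in siControl and 51.9% and 47.1% in siMBD6. In both siMBD6 lists the promoters of NGEF (100.0% and 62.7%), NHEJ1 of DNA end joining (57.8% and 63.7%), SLC22A17 (63.3% and 54.2%), the repressor gene HIC1 (54.1% and 56.8%) and the selenoprotein gene SELENOM (53.9% and 74.5%) were covered as given. Their loci also held an siControl peak, and with peaks of 1 kb or more the HIC1 promoter difference was 0 points. All 12 promoters were at 0% in both siControl lists, as the selection requires.

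The 6 lost promoters with the widest gap were covered less fully in siControl than the 12 gained ones in siMBD6. They were drawn from 77 promoters, however, and the gained ones from 623. Over all lost promoters the median was 25% in both siControl lists, the same as for gained promoters in siMBD6. In the 2 siControl lists, the windows were covered for 51.9% and 38.2% at ANKRD40CL, 41.8% and 38.0% at HOXB9, a homeobox gene, and 33.8% and 33.9% at LARS1, the leucyl-tRNA synthetase gene. GEMIN7, of the SMN complex, had 39.6% and 25%, HS3ST3A1, a heparan sulphate sulphotransferase gene, 25% and 25%, and ZNF383 32.8% and 25%. The spans of LARS1, GEMIN7, HS3ST3A1 and ZNF383 were at 0% in both siMBD6 lists, but had little coverage in siControl. There they were covered for 0.568% and 0.675%, 4.41% and 4.07%, 0.464% and 0.464%, and 1.49% and 1.37%. With peaks of 1 kb or more, the promoter differences of these genes were 0 points.

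**Figure D4:**
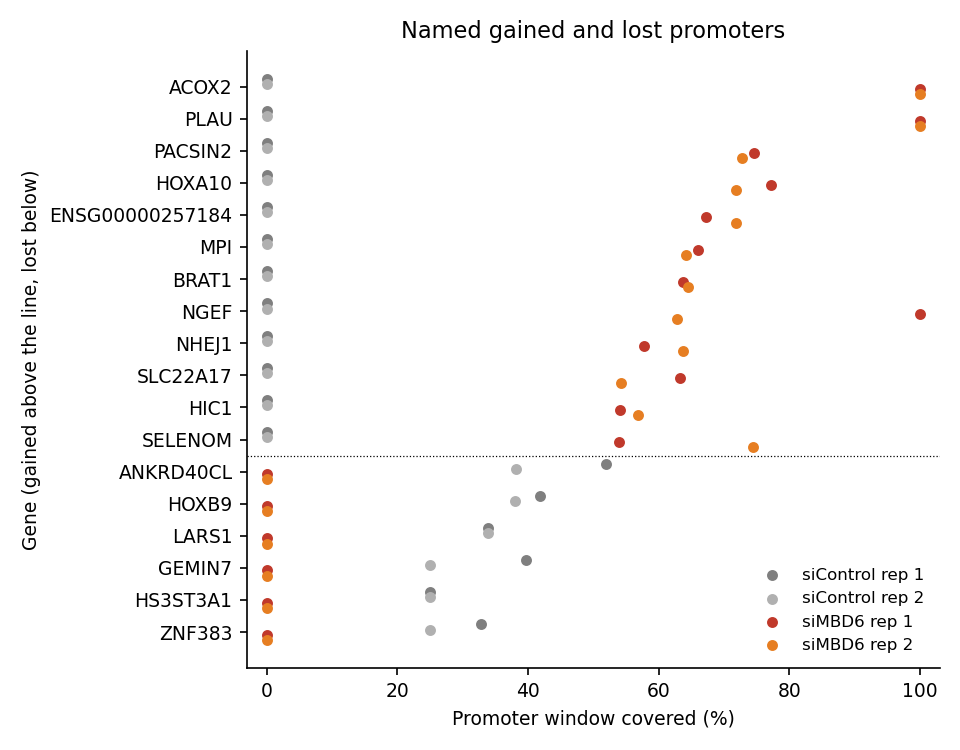
Points give the percent of the promoter window covered in each of the 4 lists for the 12 gained promoters (above the dotted line) and the 6 lost promoters (below it) with the widest gap between groups. Gained promoters sit at 0% in both siControl lists and at 53.9% to 100.0% in siMBD6, and lost ones at 25% to 51.9% in siControl and 0% in siMBD6.

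Of the 9 genes of PR-DUB and its MBD partners, 1 had a gained promoter, MBD6 (11.1%, against 3.26% of all promoters). The MBD6 promoter was at 0% in both siControl lists and at 25% and 40.8% in siMBD6, whereas its span (chr12:57520710-57530148) overlapped between groups, at 15.7% and 19.9% against 14.4% and 15.9%. With peaks of 1 kb or more, the MBD6 promoter difference was 0 points. BAP1, the catalytic subunit, had an unmarked promoter in all 4 lists, and its span was covered for 16.0% and 18.04% in siControl and 49.3% and 21.4% in siMBD6. The BAP1 difference of 18.3 points came to 4.37 points without siMBD6 replicate 1. MBD5, ASXL1, ASXL2, ASXL3 and the FOXK2 promoter were at 0% in both siControl lists. ASXL1 was marked at its promoter in 1 siMBD6 list (37.8%) and MBD5 in the other (25%). KDM1B was marked at its promoter in 1 list of each group. FOXK1, a forkhead factor gene bound by PR-DUB, had 4.40% and 5.44% of its span covered in siControl and 7.52% and 11.9% in siMBD6.

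Over gene bodies the increase was broad. Protein-coding spans were covered for an average of 14.4% and 14.5% in siControl and 17.9% and 18.8% in siMBD6, and genes covered over more than 50% of their span rose from 2163 and 2186 to 2954 and 3173. Both siMBD6 lists were above both siControl lists for 6766 genes (35.4%) and below for 250 (1.31%), while 6404 genes were at 0% in all 4 lists. With a gap of at least 20 points, 214 genes gained (1.12%) and 2 lost (0.0105%), the latter being the olfactory receptor gene OR52N4 and C2CD4C, both named after their values were seen. Of the 214, 138 had a promoter marked in all 4 lists and 27 a gained promoter, and 111 spanned under 5 kb. In a limma fit on 7881 genes with a mean coverage of at least 5%, 0 were higher (0%) and 0 lower (0%) at an adjusted p under 0.05, and 2551 (32.4%) and 30 (0.381%) at an unadjusted p under 0.05. The median difference in that fit was 7.93 points. On log2 covered kilobases limma called 798 higher and 0 lower at an adjusted p under 0.05.

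The added length in genes was spread over every promoter state. Genes with a promoter in all 4 lists had 53.5 and 53.7 Mb covered in siControl and 66.3 and 69.6 Mb in siMBD6, a difference of 14.4 Mb or 26.9%. Genes marked at the promoter in some other combination of lists went from 17.0 and 17.1 Mb to 24.0 and 26.1 Mb, or by 46.6%. In genes whose promoter no list marked, coverage went from 10.7 and 10.6 Mb to 15.6 and 17.2 Mb, or by 54.1%. Genes with a gained promoter changed by 56.9%, from 2.52 and 2.53 Mb to 3.84 and 4.09 Mb. Genes with a lost promoter also had a higher total, 0.572 and 0.614 Mb against 0.460 and 0.463 Mb. Gene by gene, 27 of these 77 genes (35.1%) were above both siControl lists in span coverage, and 24 (31.2%) were below. Over every protein-coding gene 1.31% were below. Part of the promoter window lies inside the gene span, so loss of the window can itself lower span coverage. The 31.2% is therefore not comparable with the 1.31%. Loss of the mark at the start went with either direction over the gene.

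Among genes of at least 5 kb, the widest gap was at TMEM37, a membrane protein gene (chr2:119429901-119438504), with 30.9% and 37.1% of the span covered in siControl and 100.0% and 90.9% in siMBD6. The difference of 61.4 points (SE 4.98) had an adjusted p of 0.126 in limma, as did the other 9 named increases. PLA2G3, a secreted phospholipase gene (chr22:31134807-31140508), went from 46.5% and 41.0% to 97.4% and 100.0%, and TUBB4A, a neuronal tubulin gene (chr19:6494319-6502848), from 23.4% and 15.0% to 73.6% and 67%. In TPM2, the beta-tropomyosin gene (chr9:35681992-35690056), 0% and 0% became 40.6% and 39.2%, with a promoter at 0% in 3 of the 4 lists. The groups do not overlap at these genes by the rule that chose them. In siMBD6 the mark filled nearly the whole of TMEM37 and PLA2G3.

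SULT1A2 (0% and 8.81% against 57.1% and 63.2%) has close copies on the same chromosome, so the placement of its reads is uncertain. ANKRD34A stood at 6.02% and 9.76% against 62.4% and 45.4%, and ANKRD60 at 6.59% and 10.9% against 45.4% and 50.5%. SLC25A39, a mitochondrial glutathione carrier gene, had 55.6% and 52.0% against 90.7% and 91.6%, LRRC25 47.0% and 48.8% against 89.2% and 82.6%, and AMHR2, the receptor gene for anti-Müllerian hormone, 25.3% and 22.1% against 57.1% and 56.3%. The 5 named decreases were smaller. ANKRD40CL had 28.1% and 25.4% in siControl and 0% and 7.67% in siMBD6, and GDPD3 33.4% and 30.2% against 15.8% and 16.9%. FANCG, a Fanconi anaemia gene, went from 10.8% and 15.7% to 0% in both, MST1 from 37.7% and 31.1% to 15.0% and 20.3%, and PTGDS, a prostaglandin synthase gene, from 92.2% and 92.5% to 81.4% and 82.3%. Their adjusted p in limma was 0.126 as well.

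Of 31 gene lists, 29 had a higher mean span coverage in both siMBD6 lists than in both siControl lists, and 2 overlapped, the proteasome genes and the replication-dependent histone genes. The mean difference over every gene was 3.93 points. The HOX genes, clustered homeobox regulators and textbook Polycomb targets, stood at 29.4% and 32.0% in siControl and 41.8% and 44.3% in siMBD6, a mean difference of 12.4 points and the largest among the lists. PAX genes (9.97 points), WNT ligands (7.93), GATA and LIM homeobox genes (7.82), and FGF, BMP and GDF ligands (7.70) followed. At the other end were the proteasome genes (0.429), ribosomal protein genes (0.817) and ZNF genes (1.41), whose spans were covered for 3.53% to 5.29% in siControl. These lists thus also had little coverage in siControl. Lists that mark lineage lay in between. The erythroid and megakaryocytic genes went from 23.4% and 27.7% to 28.0% and 29.0%. Their mean difference of 2.93 points was below that over every gene, although their siControl coverage was higher. The myeloid genes went from 29.9% and 33.2% to 37.3% and 38.2%, and the lymphoid regulators from 23.4% and 23.3% to 29.4% and 28.2%.

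Within the HOX genes, 3 of 39 promoters were gained (7.69%, against 3.26% of all promoters), 1 was lost and 21 were marked in all 4 lists. The 3 gains, HOXA2, HOXA4 and HOXA10, were all in the HOXA cluster (chr7:27092993-27200091), where marked promoters numbered 7 and 5 of 11 in siControl and 10 and 11 in siMBD6. The cluster was covered for 30.1% and 34.8% in siControl and 48.5% and 53.9% in siMBD6. HOXD went from 35.4% and 44.2% to 52.2% and 58.1%, HOXC from 41.9% and 40.01% to 51.4% and 53.6%, and HOXB, which held the lost HOXB9 promoter, from 14.3% and 15.9% to 20.7% and 22.5%. The groups did not overlap at any of the 4 clusters. HOXA2 had 0% of its span covered in both siControl lists and 50.2% and 45.1% in siMBD6.

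The other lists had few gained promoters each. ZNF genes had 22 of 497 (4.43%), solute carrier genes 14 of 323 (4.33%), and olfactory receptor genes 5 of 412 (1.21%), shares near or below the 3.26% of all promoters. The keratin and keratin-associated genes had 1 gained promoter of 149 but 11 gained bodies (7.38%, against 1.12% of all genes). Many of these are short genes in clusters of close copies, such as the KRTAP10 genes, where the placement of reads is uncertain. Ribosomal protein genes had 3 gained promoters of 79 (3.8%, near the share of all promoters), RPL15, RPL35 and RPS3A, and 1 lost, RPL3L. The gained ones each had 25% to 39.0% of the window covered and 9.39% or less of the span. Proteasome genes had 2 gained promoters of 38, PSMB2 and PSMD2, with 25% in both siMBD6 lists. The RNA m5C list had 1 of 11, YBX1, a reader of the modification (25% and 31.4%). The PAX list had 1 of 9, PAX3 (57.0% and 25%), and the T-box list 1 of 12, TBX20 (25% and 31.5%). SOCS1, a cytokine feedback gene, was lost at its promoter, from 50.6% and 2.4% to 0% in both siMBD6 lists.

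**Figure D5:**
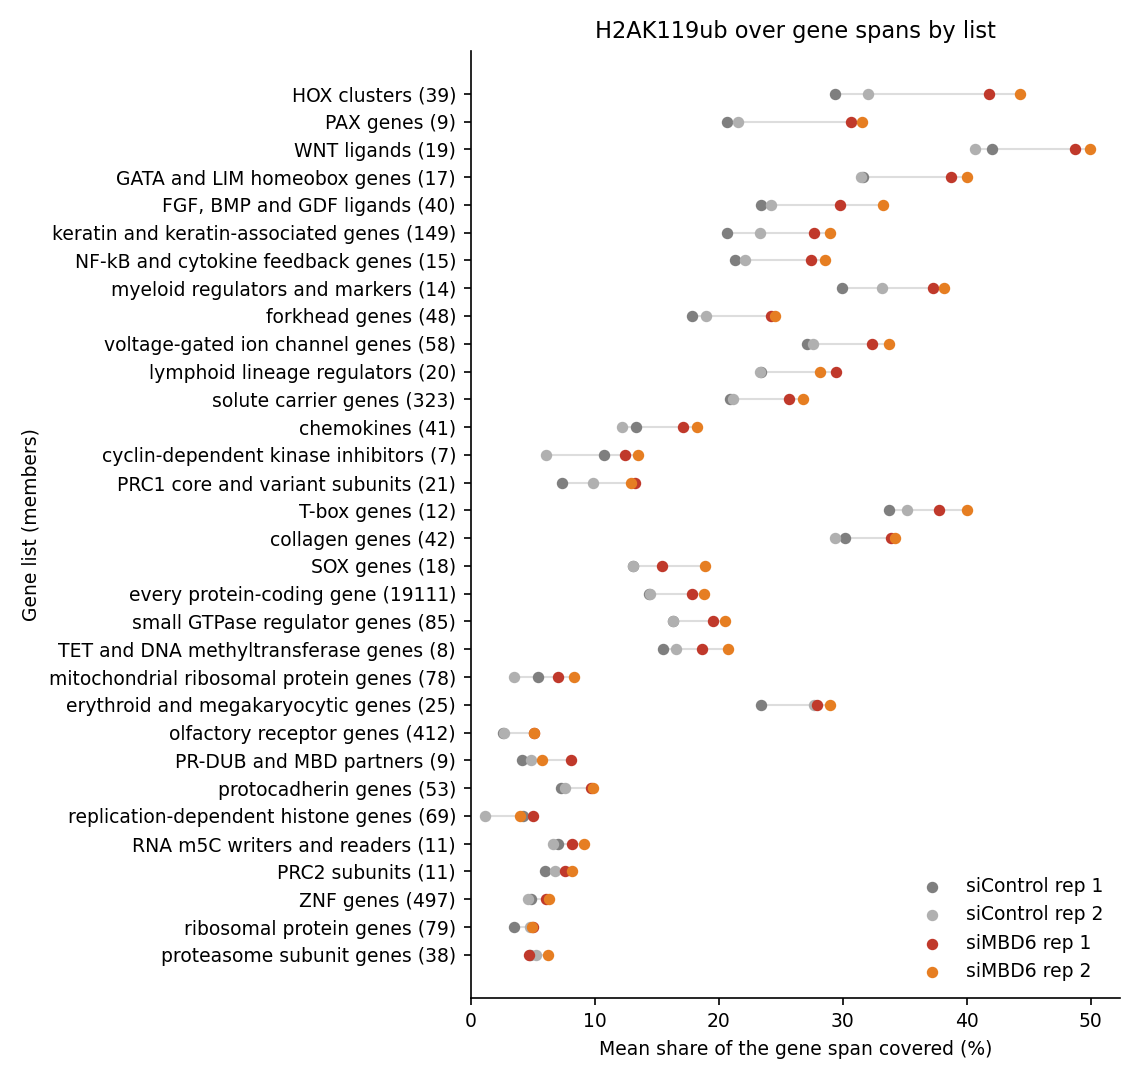
Points give the mean percent of the gene span covered in each list for 31 gene lists and for every protein-coding gene, ordered by the difference between group means. HOX genes are at the top with 29.4% and 32.0% in siControl against 41.8% and 44.3% in siMBD6, and the proteasome and histone genes are the 2 lists that overlap.

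The gained bases were of intermediate base composition, and so were the lost bases. G and C made up 56.9% of bases covered in both siControl lists, against 41.0% of all known autosomal bases. The share was 52.4% of the gained bases and 52.6% of the lost bases. By the kind of gain the share was 52.7% in outward extension, 52.1% between peaks and 53.3% in isolated loci. Promoters took 4.47% of the bases covered in both siControl lists, 3.31% of the outward extension, 2.93% of the filled gaps and 8.22% of the isolated gains, against 1.27% of the genome. Introns of protein-coding genes held 45.5% and sequence outside annotated genes 32.6% of all gained bases. The isolated gains were thus richer in promoter sequence than the growth of existing domains, as a description of base counts with no test. Promoter sequence was not particular to the gain. It made up 5.39% of all lost bases, against 3.41% of all gained bases. Among isolated loci, 26 of 207 lost ones touched a promoter, a larger share than the 268 of 2977 new ones.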

How the data were processed

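H2AK119ub CUT&Tag peak lists of 4 K562 samples, 2 siControl and 2 siMBD6, were taken as deposited. The authors' files hold other values than measurements of signal: start and end positions per peak on hg38, deposited by the authors with no score, count, coverage or p-value, so depth and counting error are unknown. Groups came from the genotype labels. Per the labels and methods, the authors trimmed reads (Trimmomatic 0.39) and aligned them (Bowtie2 2.4.1). The methods call broad peaks with MACS2, whereas the submitters' processing notes name HOMER 4.9, and the spike-in scaling of signal does not enter a position list. Positions were read as BED intervals on the 22 autosomes.

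Loci were peaks of all 4 lists joined over gaps of up to 1 kb, shared loci held a peak in all 4, and isolated loci lay at least 5 kb from any peak of the other group. Promoters reached 1 kb to each side of GENCODE v44 protein-coding gene starts, and gene bodies were whole gene spans. Loci and spans (mean coverage of at least 5%) were tested with limma 3.58.1 in R 4.3.3, with a trended, robust prior and Benjamini-Hochberg adjustment at 0.05. Single values were compared by two-sided exact permutation tests. Intervals were handled in Python 3.11.15 with numpy 2.4.6. The interval rules and limma were tested on simulated data. Named items were MBD6, MBD5 and PR-DUB genes, the 12 gained and 6 lost promoters, 10 increased and 5 decreased gene bodies of at least 5 kb, 8 wider and 3 narrower shared loci with the widest gaps between groups, the 6 new and 3 lost isolated loci with the most bases covered, and up to 4 promoters per gene list. The members and lists were chosen with earlier results of these data known. Alternatives covered peak width, list length, joining, isolation, window, gap, scale, chromosomes, a replicate block and leaving out each sample.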

Additional observations from a re-analysis of the deposited data

Results flagged for a closer look

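The X chromosome was outside the autosomal comparison, and peaks there covered more in siMBD6. Covered length on X was 1.28 and 1.30 Mb in siControl and 1.97 and 2.19 Mb in siMBD6, a change of 61.5%, with 1320 and 1347 peaks against 1824 and 1989. The groups did not overlap, in the same direction as on all 22 autosomes, whose changes ran from 27.5% to 69.5% (smallest exact permutation p = 0.333).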

How the results depend on the processing

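Covered length, peak number, shared-locus length and flank coverage kept their direction under every alternative run, apart from the peak number in lists of equal peak number, which is 0 by construction. The share of the gain in shared loci was 54.2% with peaks of 1 kb or more, 78.3% with lists of equal peak number, 57.9% with loci joined over 0 bp, 88.1% over 5 kb, and 68.0% to 72.0% with a sample left out. Isolated loci numbered 1560 new and 459 lost in lists of equal peak number, and 664 and 41 at a distance of 25 kb. At 1 kb they numbered 7674 and 735, which is every locus of that kind by construction, since loci were joined over 1 kb. Peaks of 1 kb or more left 47 lost isolated loci, 25 lost promoters and 6 lost gene bodies. Lists of equal peak number gave 401 promoters gained and 142 lost. A covered share of at least 50% as the rule for a mark in either group gave 405 and 26. Gene bodies were 1232 gained and 16 lost at a gap of 10 points, and 19 and 0 at 40 points. Leaving out a sample requires fewer lists to concur, and each such count then rose. New isolated loci ranged from 6570 to 8442 and lost ones from 537 to 2060, promoters gained from 1146 to 1369 and promoters lost from 210 to 412, gene bodies gained from 428 to 602 and lost from 10 to 33. limma called 0 loci and 0 gene bodies with any sample left out, but 2846 wider and 1 narrower loci when joined over 5 kb, 71 higher and 15 lower gene bodies with no filter on coverage, and 798 higher and 0 lower on log2 covered kb plus 1. The cause was not tested. Without chromosomes 9 and 22, chosen after the data were seen, covered length changed by 40.1% and new isolated loci numbered 2820. Of 1224 values of named genes and loci under the alternatives, 15 changed sign, over 10 promoters, spans or loci. In 1 of these the groups had not overlapped, the SLC25A39 promoter, 26.9 points higher with peaks of 1 kb or more. Apart from that one, 1030 moved by no more than the replicate SD and 193 by more.

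Replicate numbers are shared between the groups, but nothing says that they mark a shared batch, and same-numbered deviations hardly correlated across loci (0.00186) or gene spans (0.0405). With the replicate number as a block, covered length changed by 38.9% and limma called 0 wider and 0 narrower loci and 0 higher and 0 lower gene bodies at an adjusted p under 0.05. With that block, 6580 loci were wider and 35 narrower, and 1912 gene bodies higher and 29 lower, at an unadjusted p under 0.05.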

Other observations

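Other gene types were also marked more often in siMBD6. Starts of lncRNA genes with a peak within 1 kb numbered 4424 and 4459 of 18390 in siControl and 5349 and 5577 in siMBD6, with 434 gained (2.36%) and 41 lost (0.223%). For miRNA genes the numbers were 527 and 538 of 1759 against 618 and 623, with 47 gained and 8 lost. Processed pseudogenes, which seldom carry the mark, went from 857 and 862 of 9302 to 1181 and 1253, a change of 41.6% against 20.4% for protein-coding genes, and reads on them can belong to the parent genes.

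Covered length rose on each of the 22 autosomes, from 27.5% on chromosome 22 to 69.5% on chromosome 18. Chromosomes with little of the mark in siControl changed more in proportion, such as chromosome 13 (0.926% covered in siControl, a change of 65.7%), and those with much changed less, such as chromosome 19 (13.6% covered, 34.2%). Across the 22 chromosomes the rank correlation between siControl coverage and percent change was -0.857 (Spearman), a description without a test, in which the siControl value enters both quantities. New isolated loci numbered 7.72 to 16.1 per 10 Mb of known sequence.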
